A study of Mus musculus with 18 samples.

Results

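The genes described are 32 genes of fatty acid uptake and oxidation, chosen by name from a table of 34714 genes measured in mouse heart. All 32 were in the table, and all 32 reached the level needed for testing (1 FPKM, fragments per kilobase of transcript, scaled to the size of the library, in at least 3 libraries). The study compared wild-type C57 mice with C57 mice whose Kcp gene was knocked out. The product of Kcp, kielin/chordin-like protein, is secreted and modulates BMP and TGF-beta signalling. Surgery was either sham or transverse aortic constriction (TAC), a narrowing of the aorta that makes the left ventricle pump against high pressure. Heart RNA gave 4 libraries from wild-type sham hearts and 5 from wild-type TAC hearts, and likewise 4 and 5 from knockout hearts. The sources used here do not give the age of the mice, the time after surgery, how the Kcp allele was made, or which part of the heart was taken. Whether the libraries are separate animals is not stated either, and p-values therefore reflect only library-to-library spread, which may be technical.

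The adult heart draws most of its energy from long-chain fatty acids. Lipoprotein lipase frees them from circulating triglyceride, CD36 and fatty acid transport proteins carry them into the cardiomyocyte, and an acyl-CoA synthetase activates them. The carnitine shuttle then moves the acyl groups into mitochondria, where each turn of beta oxidation shortens the chain by dehydrogenation, hydration, a further dehydrogenation and thiolysis. Electrons from the dehydrogenases reach ubiquinone through the electron transfer flavoprotein. Many of the genes are known targets of the nuclear receptor PPAR-alpha and of the oestrogen-related receptors, and lower expression of the pathway is a known feature of the pressure-overloaded heart.

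Sequence around the start site is shown for 4 members: Hadhb because it shares its promoter DNA with Hadha, Acadm for a motif, and the neighbouring copies Acot1 and Acot2 because their changes differed in size. RefSeq windows of 250 bases before and 50 after the start (GRCm38.p6) were matched by symbol for 27 of the 32 genes, as 30 windows; Acaa2, Decr1, Cpt1b, Acot13 and Lpl were not matched. Hadha and Hadhb, the subunits of the trifunctional protein, lie head to head on chromosome 5, and 228 bases of their 300-base windows are the same DNA. The Hadhb window (chr5:30155003-30155302, plus strand) is given with GC boxes, the letters GGGCGG on either strand, in capitals. The Acadm window (chr3:153944594-153944893, minus strand) is given with AAGGTCA, the letters of a nuclear receptor element, in capitals on either strand. Acot1 (chr12:84009252-84009551, plus strand) and Acot2 (chr12:83987611-83987910, plus strand) are neighbouring copies, and their GC boxes are in capitals too.
Hadhb: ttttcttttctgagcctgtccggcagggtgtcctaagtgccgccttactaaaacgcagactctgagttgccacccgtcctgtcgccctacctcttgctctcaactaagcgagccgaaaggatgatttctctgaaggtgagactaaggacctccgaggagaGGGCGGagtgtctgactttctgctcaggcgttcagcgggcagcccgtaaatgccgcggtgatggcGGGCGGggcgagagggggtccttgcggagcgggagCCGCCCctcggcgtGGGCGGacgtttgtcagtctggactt
Acadm: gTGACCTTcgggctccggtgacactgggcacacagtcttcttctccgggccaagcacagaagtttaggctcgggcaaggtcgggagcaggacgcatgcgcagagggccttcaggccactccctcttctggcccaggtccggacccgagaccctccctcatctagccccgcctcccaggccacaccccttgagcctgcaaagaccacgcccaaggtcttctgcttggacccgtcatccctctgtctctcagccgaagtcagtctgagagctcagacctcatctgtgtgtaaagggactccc
Acot1: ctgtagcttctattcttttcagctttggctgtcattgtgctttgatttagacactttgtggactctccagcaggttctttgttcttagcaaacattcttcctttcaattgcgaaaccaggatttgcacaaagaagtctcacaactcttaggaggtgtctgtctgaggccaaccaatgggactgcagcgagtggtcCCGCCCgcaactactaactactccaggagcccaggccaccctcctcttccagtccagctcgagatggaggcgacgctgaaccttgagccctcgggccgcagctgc
Acot2: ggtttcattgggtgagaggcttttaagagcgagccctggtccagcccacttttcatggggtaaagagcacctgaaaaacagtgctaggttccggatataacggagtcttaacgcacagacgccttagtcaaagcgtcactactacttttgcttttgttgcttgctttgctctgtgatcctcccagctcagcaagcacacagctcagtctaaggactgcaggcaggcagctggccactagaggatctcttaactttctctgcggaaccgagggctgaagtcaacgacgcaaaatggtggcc

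GC boxes were found in 20 of the 30 member windows (66.7%) and in 35.7% of all 32851 windows. The 20 windows belong to 19 genes, and those of Hadha and Hadhb share 228 bases, so the 20 are not all independent. Hadhb had 4 matches, Acot1 had 1 and Acot2 had 0. AAGGTCA was found in 2 member windows, those of Acadm and Acacb (6.67%), and in 4.72% of all windows. The direct repeat bound by PPAR with its partner RXR, searched as 2 copies of AGGTCA with any 1 base between them, was found in 0 member windows and in 0.0396% of all windows. A GC box cannot share letters with the other motifs, and a direct repeat with A as the middle base also holds AAGGTCA. These are matches of letters in short windows. Acot1 and Acot2 had 46.8% identical positions in their aligned windows and 85.6% in their longest open reading frames, so reads of the pair may be shared and their separate values are uncertain.

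Several facts of the libraries bear on all values. Knockout sham replicate 2 carries a library name that joins those of replicates 3 and 4, so the model used the other 17 libraries. Its values are still printed, as the second of the 4 in knockout sham. Knockout TAC replicate 4 also has a joined name, but of no other library here, and was kept. Kcp was at 0.494 to 0.952 FPKM in libraries labelled knockout and at 0.794 to 1.48 in wild type, so the ranges overlapped (limma adjusted p = 0.301 in sham and 0.0843 after TAC). Nppb, a natriuretic peptide gene that marks cardiac load, rose after TAC in both genotypes (2.61 ± 0.29 and 4.29 ± 0.32 on the log2 scale). Of 11952 genes examined, 17 had a log2 gap above 0.5 between the same 2 sets of libraries, and 0 of the 17 are among the 32 genes. All knockout libraries and wild-type TAC replicate 5 form 1 set, so set and genotype can hardly be told apart. A model term for the sets is estimated only from wild-type TAC replicate 5 against the other wild-type TAC libraries. The sequencing depth is unknown, because the values are not multiples of a fixed step. Exons of Cpt1b overlap those of Gm44502 on the same strand over 81.4% of their length. Exons of Etfb overlap those of Gm45233 on the same strand over 53.0%, and those of Acadvl overlap Dvl2 on the opposite strand over 42.9%. The values of these 3 genes may hold reads of their neighbours.

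After TAC most genes of the pathway were lower in hearts of both genotypes. In wild type 21 of the 32 genes fell and 1 rose after TAC, where 11.2% of 11937 genes tested fell and 10.7% rose (limma, Benjamini-Hochberg adjusted p under 0.05). In knockout 29 fell and 0 rose, where 17.7% of all genes fell and 21.1% rose. At an unadjusted p under 0.05, 30 of the 32 were lower in knockout and 0 higher. The share of all genes at that unadjusted level is not given here. All 21 genes that fell in wild type were among the 29. The median log2 change of the 32 genes was -0.35 in wild type and -0.72 in knockout, beside -0.01 and 0.01 over all genes tested. Changes below are on the log2(FPKM + 1) scale, with ± for the standard error.

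With each gene set to 100% at its wild-type sham mean, the median of the 32 genes was 95.6% to 106% in wild-type sham and 69.5% to 85.5% in wild-type TAC. It was 114% to 118% in the 3 knockout sham libraries of the model, 111% in replicate 2, and 68.1% to 80.7% in knockout TAC. Both TAC groups lay below both sham groups, and knockout sham lay above wild-type sham. Wild-type TAC replicate 5 (85.5%) and knockout TAC replicate 2 (80.7%) were the highest of their groups. In wild type the libraries of TAC lay below every sham library for 22 of the 32 genes, and in knockout for 28 (11.1% and 16.0% of all genes tested). None of the 32 lay higher without overlap in either genotype (10.5% and 19.8% of all genes tested).

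**Figure D1:**
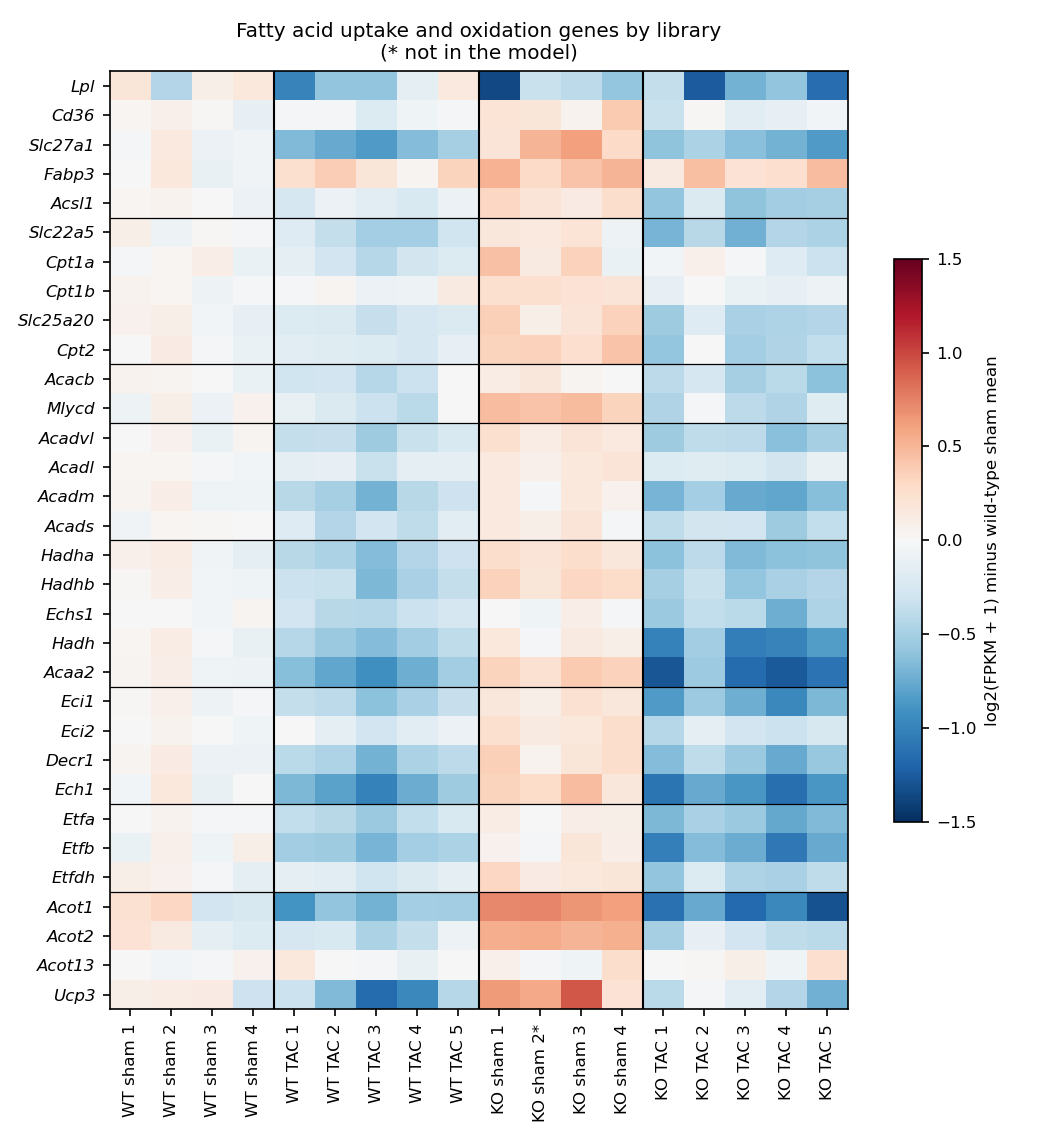
Each cell is the difference of log2(FPKM + 1) from the wild-type sham mean for 1 gene (rows, ordered by role and divided by lines) in 1 library (columns, in 4 groups divided by lines). Blue cells fill most rows of both TAC groups, knockout sham is mostly red, and Fabp3, Acot13 and Lpl depart from the pattern.

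Uptake and activation genes moved unevenly. Slc27a1 was at 47.4, 53.1, 45.1 and 46.1 FPKM in wild-type sham and at 30, 27.9, 26.2, 30 and 33.7 after TAC. The Slc27a1 values in knockout were 55, 68.5, 74.1 and 58.8 in sham and 31.1, 34.1, 30.7, 28.8 and 26.1 after TAC. Slc27a1 (chromosome 8, 71568728 to 71587307) encodes fatty acid transport protein, which couples uptake to activation. All 10 TAC libraries were below all sham libraries, and it fell by 0.68 ± 0.09 on the log2 scale in wild type (limma adjusted p = 7.22e-05) and by 1.02 ± 0.10 in knockout (limma adjusted p = 6.02e-07). Acsl1 stood at 261, 266, 256 and 241 FPKM in the wild-type sham libraries and at 214, 240.4, 229.9, 218 and 241 in the wild-type TAC libraries. Knockout Acsl1 stood at 317, 293, 279.6 and 308 in sham and 169.9, 219.9, 168, 178 and 181 after TAC. Acsl1 is the main acyl-CoA synthetase of heart muscle. Its wild-type groups overlapped (-0.16 ± 0.07, limma adjusted p = 0.107), while in knockout it fell (-0.72 ± 0.08, limma adjusted p = 1.66e-06) and the groups did not overlap. Cd36, the fatty acid translocase, had the same division, at -0.07 in wild type and -0.35 ± 0.08 in knockout (limma adjusted p = 0.00256).

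Fabp3, the heart fatty acid binding protein that carries fatty acids in the cytosol, was the most abundant of the 32 genes and the 1 that rose. For Fabp3 the wild-type values were 2882, 3199.8, 2656 and 2768 FPKM in sham and 3402, 3694, 3258, 2958 and 3618 after TAC. Levels of Fabp3 in knockout were 4103, 3510.4, 3867 and 4095 in sham and 3140.03, 3938, 3335, 3412 and 3955 after TAC. The wild-type groups overlapped, and the rise was 0.23 ± 0.08 (limma adjusted p = 0.0401). It did not pass without wild-type sham replicate 1, 3 or 4, or TAC replicate 1, 2, 3 or 5 (limma adjusted p up to 0.12). In knockout the change was -0.18 ± 0.09 (limma adjusted p = 0.0981). Lpl was at 1269.7, 829, 1193 and 1255 FPKM in wild-type sham and at 561, 743, 741, 1013 and 1237 after TAC. The Lpl values in knockout were 437, 888, 851 and 749 in sham and 877, 472, 685, 741 and 508 after TAC. Lpl encodes lipoprotein lipase. Its values spread widely within each group and overlapped between all of them, with changes of -0.44 ± 0.26 in wild type and -0.03 ± 0.28 in knockout (limma adjusted p = 0.245 and 0.943).

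The carnitine shuttle was lower in all 5 of its genes in knockout and in 2 of 5 in wild type. Cpt1b stood at 227, 223, 206 and 215 FPKM in the wild-type sham libraries and at 214, 224, 204, 207 and 239 in the wild-type TAC libraries. Knockout Cpt1b stood at 257, 258, 252 and 249 in sham and 199, 218, 203, 199.6 and 207 after TAC. Cpt1b (chromosome 15, 89416405 to 89425862) is the muscle form of carnitine palmitoyltransferase on the outer mitochondrial membrane, the gate of the shuttle. In wild type its sham and TAC libraries overlapped (-0.00 ± 0.05, limma adjusted p = 0.98), and in knockout all TAC libraries were below sham (-0.30 ± 0.05, limma adjusted p = 0.000292). For Cpt1a the wild-type values were 11.4, 11.9, 12.6 and 10.8 FPKM in sham and 10.4, 9.33, 8.40, 9.46 and 9.94 after TAC. Levels of Cpt1a in knockout were 16.2, 12.8, 15.1 and 10.8 in sham and 11.3, 12.3, 11.4, 10.1 and 9.09 after TAC. Cpt1a, the liver form of the same enzyme, was far less abundant per length. In wild type its groups did not overlap but the change did not pass (-0.27 ± 0.10, limma adjusted p = 0.06). In knockout the groups overlapped and it fell (-0.33 ± 0.11, limma adjusted p = 0.0205). That call was lost without knockout sham replicate 1 or 3 (limma adjusted p up to 0.147) and with only the knockout groups fitted.

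Slc25a20 was at 97.4, 98.9, 89.9 and 85.4 FPKM in wild-type sham and at 80.4, 79.6, 72.7, 77.8 and 79.5 after TAC. The Slc25a20 values in knockout were 119, 99, 106 and 119 in sham and 63.6, 81.1, 66, 66.8 and 68.4 after TAC. Slc25a20 encodes the carnitine-acylcarnitine translocase of the inner membrane. The TAC libraries were below sham in both genotypes, and it fell by 0.25 ± 0.07 in wild type (limma adjusted p = 0.0124) and by 0.72 ± 0.07 in knockout (limma adjusted p = 9.06e-07). Cpt2 stood at 109, 120.1, 109 and 102 FPKM in the wild-type sham libraries and at 98.7, 97, 95.6, 92.2 and 101 in the wild-type TAC libraries. Knockout Cpt2 stood at 139, 141, 131 and 148 in sham and 73, 109.5, 76.9, 80.2 and 85 after TAC. Cpt2 reforms acyl-CoA inside the matrix. Its TAC libraries lay below sham in both genotypes, with a change of -0.18 ± 0.09 in wild type (limma adjusted p = 0.146) and of -0.72 ± 0.09 in knockout, where it passed (limma adjusted p = 1.32e-05). Slc22a5, the carnitine importer OCTN2 of the cell membrane, fell in both (-0.37 ± 0.09 and -0.65 ± 0.09) from a low level of 8.47 FPKM in wild-type sham.

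Malonyl-CoA, which blocks the shuttle gate, is made by acetyl-CoA carboxylase beta (Acacb) and removed by malonyl-CoA decarboxylase (Mlycd). For Acacb the wild-type values were 48.4, 47.8, 46.5 and 43.4 FPKM in sham and 37.6, 38, 34.4, 36.9 and 46.3 after TAC. Levels of Acacb in knockout were 50.5, 52.3, 47.9 and 46.8 in sham and 35.1, 38.8, 32.7, 34.9 and 30 after TAC. Acacb fell in both genotypes, by 0.27 ± 0.08 (limma adjusted p = 0.0187) and 0.49 ± 0.08 (limma adjusted p = 0.000185). The wild-type call was lost without sham replicate 1 or TAC replicate 3 (limma adjusted p up to 0.056), and wild-type TAC replicate 5 lay within the sham range. Mlycd was at 33, 37, 32.7 and 36.5 FPKM in wild-type sham and at 32.2, 29.9, 27.6, 26.1 and 34.8 after TAC. The Mlycd values in knockout were 48.3, 47.1, 48.7 and 44.2 in sham and 25.2, 34.2, 26.1, 25.1 and 30.5 after TAC. Mlycd did not pass in wild type (-0.21 ± 0.09, limma adjusted p = 0.114) and fell in knockout (-0.73 ± 0.10, limma adjusted p = 2.2e-05), where no TAC library reached sham. The genes for making and for removing malonyl-CoA both fell in knockout.

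The acyl-CoA dehydrogenases, which start each turn of oxidation and differ in the chain length they prefer, fell in 4 of 4 genes in both genotypes. Acadm stood at 575, 599, 535 and 537 FPKM in the wild-type sham libraries and at 419, 397, 343, 421 and 453 in the wild-type TAC libraries. Knockout Acadm stood at 622, 550.2, 625 and 587 in sham and 346, 393, 331, 327 and 359 after TAC. Acadm, the medium-chain enzyme whose promoter window holds AAGGTCA, had no overlap between TAC and sham. It fell by 0.47 ± 0.07 in wild type (limma adjusted p = 0.000224) and by 0.80 ± 0.08 in knockout (limma adjusted p = 6.65e-07). For Acadl the wild-type values were 474, 475, 457 and 453 FPKM in sham and 423, 427, 369.9, 422 and 423 after TAC. Levels of Acadl in knockout were 515, 491, 518 and 531 in sham and 402, 411, 404, 384 and 429 after TAC. Acadl, the long-chain enzyme, changed least of the 4 but without overlap, at -0.17 ± 0.05 and -0.36 ± 0.05 (limma adjusted p = 0.0157 and 3.59e-05). Acadvl, the very-long-chain enzyme, fell by 0.36 ± 0.06 and 0.68 ± 0.07. Acads, the short-chain enzyme, fell by 0.30 ± 0.07 and 0.48 ± 0.07.

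The later steps of the spiral fell in 5 of 5 genes in both genotypes. Acaa2 was at 452, 470.04, 418 and 418 FPKM in wild-type sham and at 281, 255, 232, 264 and 306 after TAC. The Acaa2 values in knockout were 554, 515, 575 and 558 in sham and 179, 300.3, 196, 182 and 203 after TAC. Acaa2 encodes the mitochondrial ketoacyl-CoA thiolase, which splits off acetyl-CoA. All TAC libraries were below all sham libraries, and it fell by 0.72 ± 0.12 in wild type (limma adjusted p = 0.000391) and by 1.43 ± 0.13 in knockout (limma adjusted p = 3.69e-07). Knockout TAC replicate 2 stood at 300.3 FPKM, above the other 4. Hadh stood at 409, 435, 394 and 371 FPKM in the wild-type sham libraries and at 298, 274, 255, 280.2 and 308 in the wild-type TAC libraries. Knockout Hadh stood at 449, 397, 441 and 425 in sham and 198, 278, 196, 201 and 223 after TAC. Hadh is the hydroxyacyl-CoA dehydrogenase of short and medium chains. The groups did not overlap in either genotype, with falls of 0.51 ± 0.09 and 1.01 ± 0.09 (limma adjusted p = 0.000603 and 5.12e-07).

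For Echs1 the wild-type values were 209, 208, 204 and 215 FPKM in sham and 171, 156, 155, 167 and 176 after TAC. Levels of Echs1 in knockout were 209, 199, 225 and 207 in sham and 142, 162, 158, 126 and 151 after TAC. Echs1, the short-chain enoyl-CoA hydratase, fell least of this group, by 0.34 ± 0.06 and 0.54 ± 0.07 (limma adjusted p = 0.00113 and 1.24e-05). Hadha and Hadhb, which share the promoter DNA printed above and whose products form 1 complex, had changes that differed by less than their standard errors. Hadha went from 599 ± 48.8 to 436 ± 35.9 FPKM in wild type (mean ± SD, n = 4 and 5) and from 703 ± 24.9 to 401 ± 29.6 in knockout (n = 3 and 5). Its log2 changes were -0.46 ± 0.07 and -0.81 ± 0.08. Hadhb went from 732 ± 37.8 to 544 ± 53.9 FPKM and from 908 ± 20.5 to 530.1 ± 32.1, with changes of -0.43 ± 0.07 and -0.78 ± 0.07. Neither gene overlapped between TAC and sham.

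Auxiliary enzymes handle the double bonds of unsaturated fatty acids, and all 4 fell in knockout and 3 of 4 in wild type. Ech1 was at 907, 1045, 862 and 935 FPKM in wild-type sham and at 587, 534, 463, 559.9 and 644 after TAC. The Ech1 values in knockout were 1182, 1130.2, 1289.7 and 1055 in sham and 439, 553, 512, 426 and 509.6 after TAC. Ech1 (chromosome 7, 28825338 to 28832239) encodes a dienoyl-CoA isomerase. It fell in wild type (-0.75 ± 0.09, limma adjusted p = 4.55e-05), and its knockout fall was -1.27 ± 0.10 (limma adjusted p = 1.52e-07). Eci1 stood at 236, 247, 222 and 231 FPKM in the wild-type sham libraries and at 183, 178, 152, 167 and 184 in the wild-type TAC libraries. Knockout Eci1 stood at 262, 249, 275 and 263 in sham and 129.8, 160.0, 139.9, 119 and 146 after TAC. Eci1 and Eci2 are enoyl-CoA isomerases of mitochondria and, for Eci2, also of peroxisomes. Eci1 fell by 0.44 ± 0.07 in wild type and 0.94 ± 0.08 in knockout (limma adjusted p = 0.00048 and 2.33e-07), with no overlap. For Eci2 the wild-type values were 90.9, 93.7, 90.1 and 86.2 FPKM in sham and 89.7, 81.5, 73.5, 80.4 and 85.1 after TAC. Levels of Eci2 in knockout were 107, 99.4, 101 and 108 in sham and 67.1, 81.5, 73.9, 71.7 and 76.4 after TAC. Eci2 overlapped in wild type (-0.14 ± 0.06, limma adjusted p = 0.108) and fell in knockout (-0.51 ± 0.07, limma adjusted p = 1.18e-05). Decr1, the dienoyl-CoA reductase, fell by 0.49 ± 0.08 and 0.86 ± 0.08.

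Electron transfer genes fell in 3 of 3 in knockout and in 2 of 3 in wild type. Etfb was at 511, 574, 521 and 581 FPKM in wild-type sham and at 381, 377, 336, 382 and 393 after TAC. The Etfb values in knockout were 573, 541, 620.2 and 583 in sham and 267, 348, 325, 258 and 324 after TAC. Etfa and Etfb encode the subunits of the electron transfer flavoprotein. Etfb fell by 0.55 ± 0.08 in wild type and by 0.97 ± 0.09 in knockout (limma adjusted p = 0.000151 and 3.55e-07). Etfa stood at 321, 335, 317 and 316 FPKM in the wild-type sham libraries and at 250.1, 241, 219, 248 and 275 in the wild-type TAC libraries. Knockout Etfa stood at 348, 322, 344 and 342 in sham and 201, 231, 219.5, 189 and 204 after TAC. Etfa fell by 0.39 ± 0.06 and 0.72 ± 0.07 (limma adjusted p = 0.000346 and 5.01e-07), and neither subunit overlapped between TAC and sham. For Etfdh the wild-type values were 249, 246, 231 and 214 FPKM in sham and 212, 209, 190.5, 201 and 212 after TAC. Levels of Etfdh in knockout were 291, 256, 262 and 267 in sham and 155, 204, 170.2, 167 and 181 after TAC. Etfdh encodes the oxidoreductase that passes the electrons to ubiquinone. Its groups did not overlap, and the change was -0.19 ± 0.07 in wild type (limma adjusted p = 0.0519) and -0.65 ± 0.08 in knockout (limma adjusted p = 4.31e-06).

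Thioesterases, which release free fatty acids from acyl-CoA, ranged from the largest change to none past the threshold. Acot1 was at 7.07, 7.52, 4.63 and 4.82 FPKM in wild-type sham and at 2.71, 3.58, 3.20, 3.83 and 3.79 after TAC. The Acot1 values in knockout were 10.3, 10.4, 9.86 and 9.53 in sham and 2.17, 3.09, 2.08, 2.52 and 1.79 after TAC. Acot1 (chromosome 12, 84009502 to 84017670) encodes the cytosolic enzyme and had the largest knockout fall of the 32 genes (-1.72 ± 0.14, limma adjusted p = 1.57e-07). In wild type it fell by 0.65 ± 0.13 (limma adjusted p = 0.00178). At its low level the pseudocount of 1 understates the fold. Acot2 stood at 32.4, 30.5, 24.8 and 23.8 FPKM in the wild-type sham libraries and at 23, 23.5, 19.5, 21.3 and 26.2 in the wild-type TAC libraries. Knockout Acot2 stood at 40.9, 41.2, 39.8 and 40.4 in sham and 19.2, 25.3, 22.5, 20.9 and 20.6 after TAC. Acot2, its mitochondrial neighbour, fell in knockout (-0.87 ± 0.10, limma adjusted p = 5.15e-06). In wild type the groups overlapped and the fall (-0.28 ± 0.10, limma adjusted p = 0.0444) was lost in 10 of the 17 fits that each left out 1 library (limma adjusted p up to 0.158).

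For Acot13 the wild-type values were 375, 367, 373 and 393 FPKM in sham and 421, 379, 373, 348 and 375 after TAC. Levels of Acot13 in knockout were 396, 373, 362 and 451 in sham and 375, 381, 401, 362 and 451 after TAC. Acot13, a further thioesterase bound to mitochondria, overlapped in both genotypes (0.01 ± 0.07 and -0.03 ± 0.08, limma adjusted p = 0.957 and 0.782). Ucp3, an inner-membrane uncoupling protein gene that follows fatty acid supply, was at 9.52 to 13.3 FPKM in wild-type sham and 4.88 to 9.51 after TAC. In knockout it was at 14.2 to 24 in sham and 6.93 to 11.9 after TAC. It fell by 0.71 ± 0.19 and 0.95 ± 0.20 (limma adjusted p = 0.0122 and 0.00142).

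**Figure D2:**
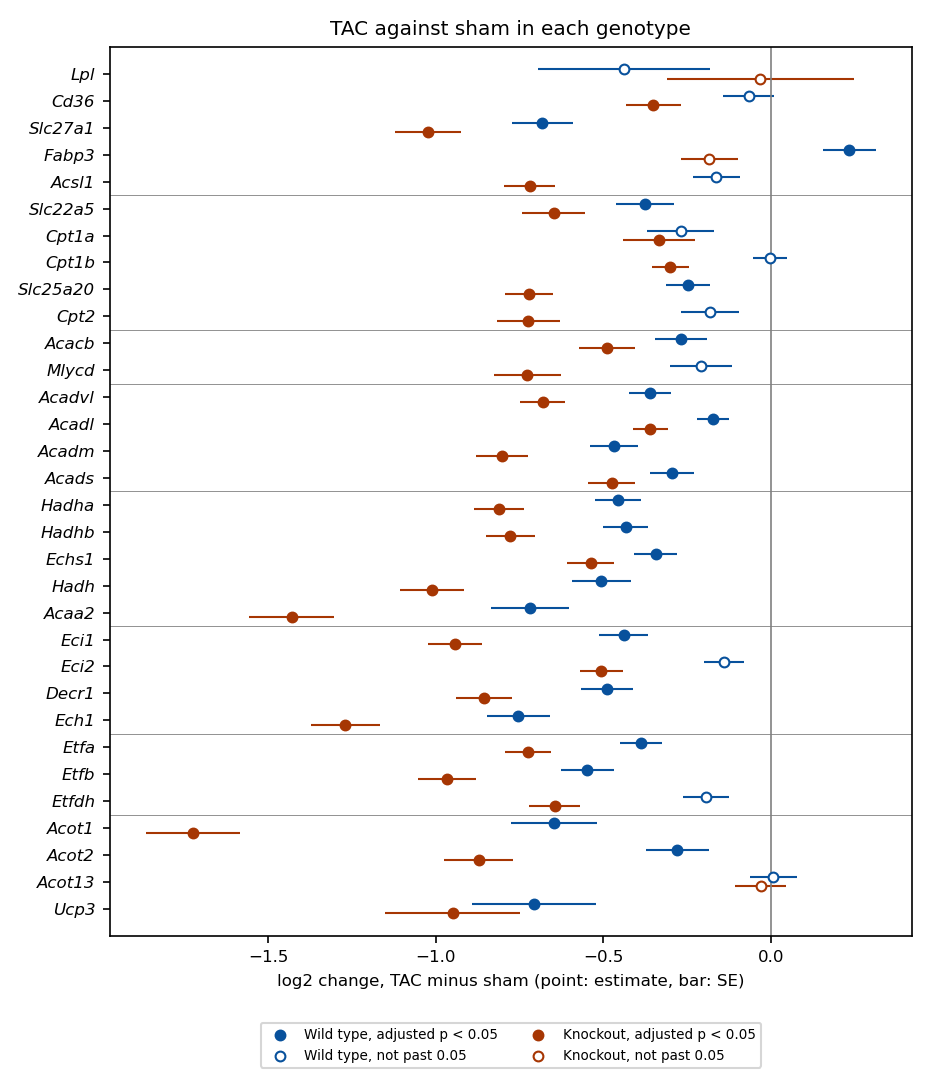
Points are the log2 changes from sham to TAC on the log2(FPKM + 1) scale and bars their standard errors, for wild type (blue) and knockout (brown); filled points passed the adjusted threshold of 0.05. The knockout point lies left of the wild-type point for 31 of the 32 genes, the exception being Lpl.

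**Figure D3:**
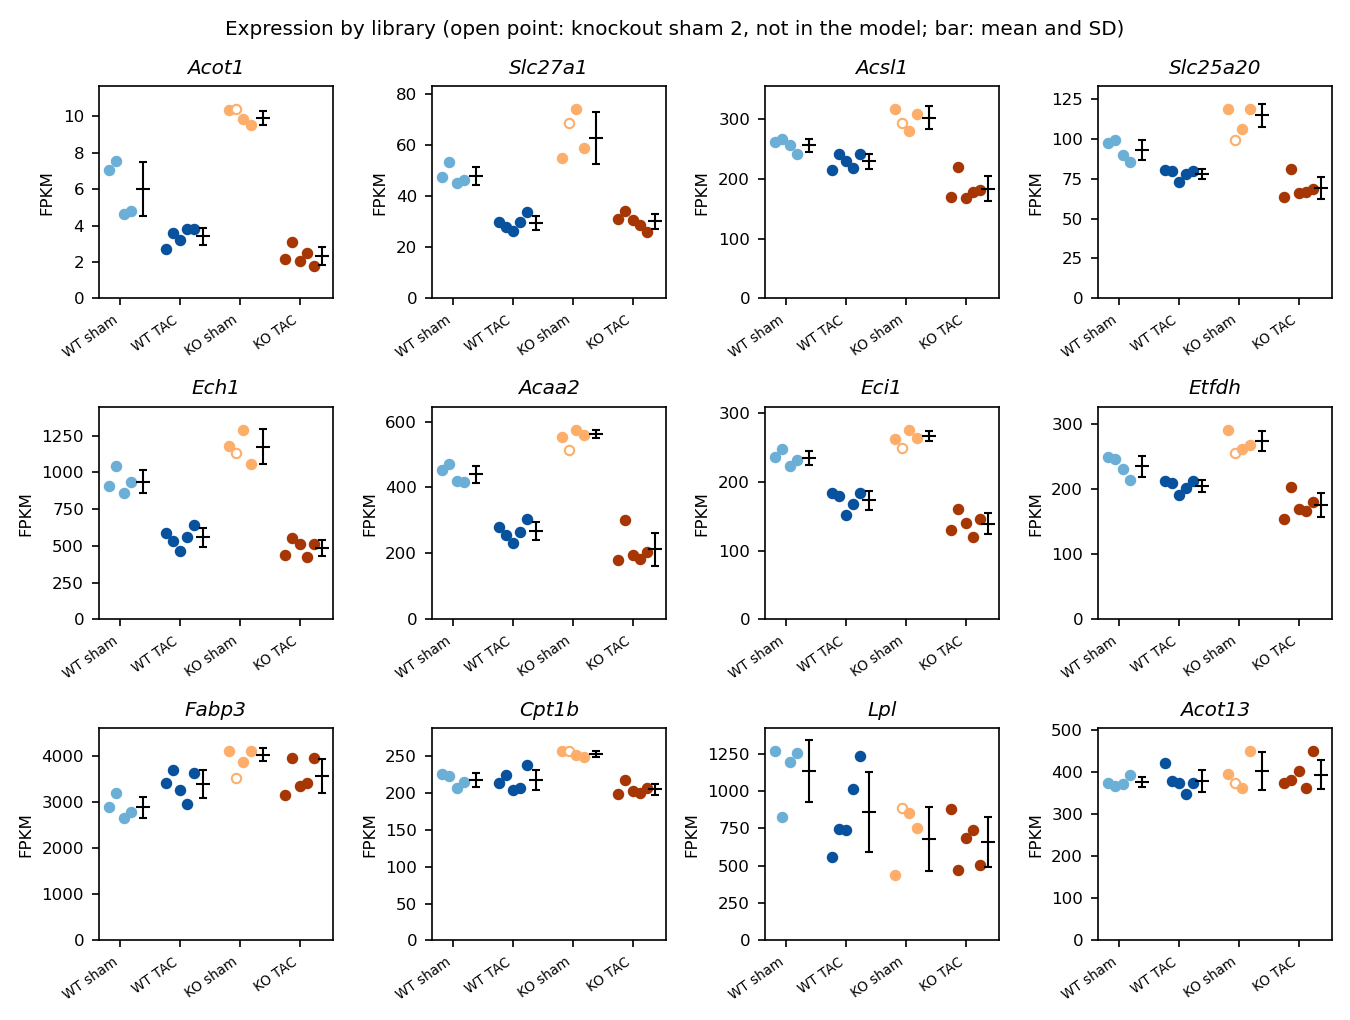
Each panel gives the FPKM of 1 gene in every library of the 4 groups, with the mean and SD of the libraries in the model beside each group (n = 4, 5, 3 and 5). The top 8 panels have TAC below sham in knockout without overlap, and Fabp3, Lpl and Acot13 did not pass in knockout. Cpt1b passed in knockout and not in wild type, but its interaction did not pass (limma adjusted p = 0.0603).

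Knockout against wild type in sham hearts was compared to see whether the genotypes differed before load. Of the 32 genes, 31 had the higher estimate in knockout, with a median log2 difference of 0.22 beside -0.01 over all genes tested. Only Fabp3, Acot1 and Acot2 passed, all higher, where 0.645% of all genes passed as higher and 0.62% as lower, 1.26% in all (limma, Benjamini-Hochberg). None of the 32 passed as lower. At an unadjusted p under 0.05 there were 21 higher and 1 lower, Lpl. These 2 counts cannot be set against the shares above, which are for adjusted p, and the share of all genes at the unadjusted level is not given here. For 21 genes all 3 knockout libraries lay above all 4 wild-type libraries, as did 7.27% of all genes tested, and 0 lay lower without overlap (8.15%). Fabp3 was higher by 0.49 ± 0.09 (limma adjusted p = 0.0102), Acot1 by 0.66 ± 0.15 (limma adjusted p = 0.0319) and Acot2 by 0.53 ± 0.11 (limma adjusted p = 0.0188). In the values above, knockout sham replicate 2, which was not fitted, was also above every wild-type sham library for each of these 3 genes. Because its name joins those of replicates 3 and 4, it may not be independent of them.

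Other genes had differences in sham that did not pass. Mlycd was at 34.8 ± 2.27 FPKM in wild-type sham (SD, n = 4) and 47.1 ± 2.52 in knockout sham (n = 3), a difference of 0.43 ± 0.10 (limma adjusted p = 0.0552). The estimate was 0.31 ± 0.08 for Hadhb (limma adjusted p = 0.0552), 0.34 ± 0.10 for Cpt2 (limma adjusted p = 0.11) and, for Slc27a1, 0.37 ± 0.10 (limma adjusted p = 0.0928). Lpl was the exception, at -0.78 ± 0.29 (limma adjusted p = 0.239). The count of 3 became 1 without wild-type sham replicate 3 or without any 1 of the 3 knockout sham libraries, and 8 without knockout TAC replicate 2. With a term for the library sets, which follow genotype in sham, it became 0, and the median difference of the 32 genes was 0.11. That term is estimated from 1 wild-type TAC library alone, so in sham it carries over the deviation of that library.

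After TAC the order was turned for most genes, with small differences. Of the 32 genes, 27 had the lower estimate in knockout and the median difference was -0.15, beside 0.02 over all genes tested. Passing as lower were 8 genes, namely Acsl1, Hadh, Acaa2, Eci1, Etfa, Etfb, Etfdh and Acot1, where 4.78% of all genes passed as lower. None passed as higher, where 6.53% of all genes did (limma, Benjamini-Hochberg). At an unadjusted p under 0.05, 17 of the 32 were lower and 0 higher. The share of all genes at that unadjusted level is not given here. Hadh differed by -0.38 ± 0.08 (limma adjusted p = 0.00838), Acsl1 by -0.32 ± 0.07 (limma adjusted p = 0.0058), Eci1 by -0.31 ± 0.07 (limma adjusted p = 0.00873), and Etfa by -0.24 ± 0.06 (limma adjusted p = 0.0159). The differences of Etfb (-0.30 ± 0.08), Etfdh (-0.23 ± 0.07), Acaa2 (-0.35 ± 0.11) and Acot1 (-0.42 ± 0.12) had limma adjusted p = 0.0171, 0.0307, 0.0455 and 0.0367.

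The libraries of the genotypes overlapped after TAC for all 32 genes, while 2.87% of all genes tested lay lower and 3.83% higher without overlap. In the values above, knockout TAC replicate 2 lay within the wild-type TAC range for Acsl1, Hadh, Acaa2, Etfa, Etfb, Etfdh, Eci1 and Acot1. The count of 8 became 4 without knockout TAC replicate 1 and 13 without replicate 2. It became 4 with only the TAC groups fitted and 2, Etfa and Acacb, with the term for the library sets, estimated from 1 wild-type TAC library.

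**Figure D4:**
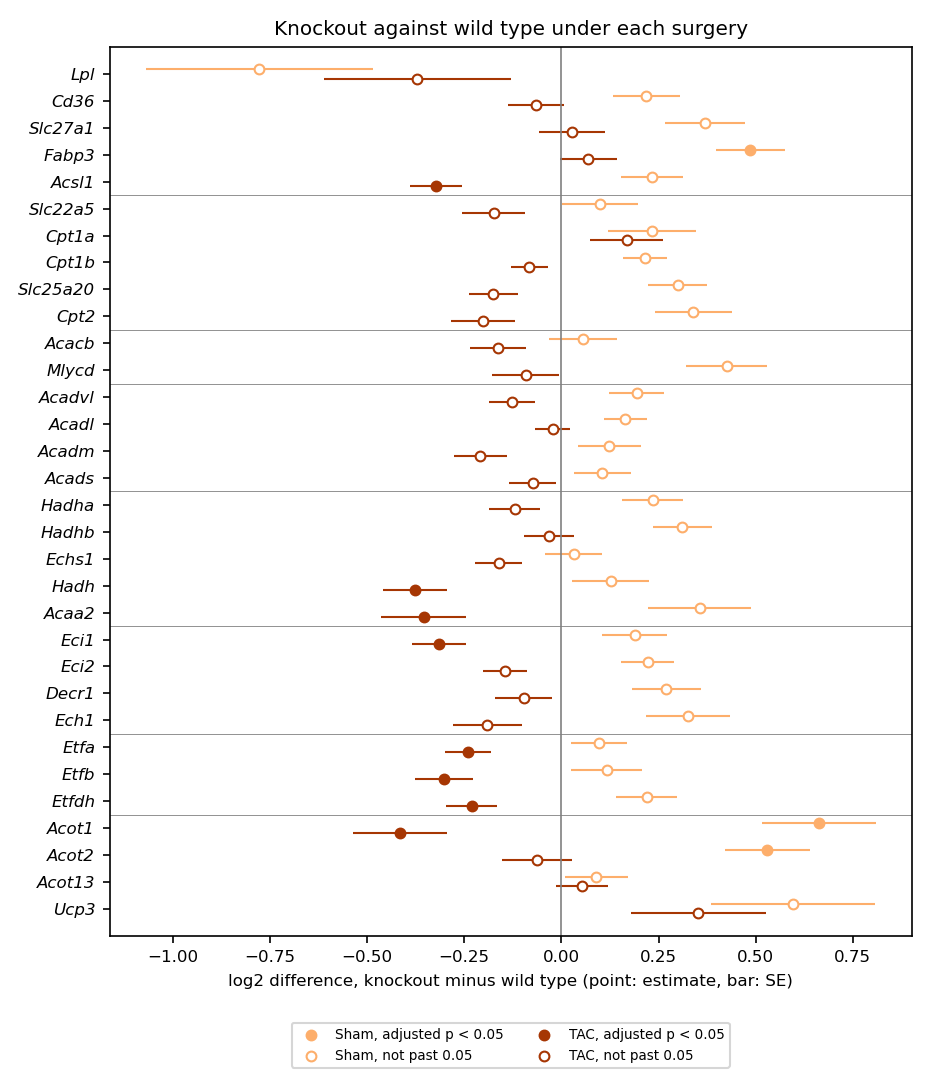
Points are the log2 differences of knockout from wild type on the log2(FPKM + 1) scale with standard errors, in sham (orange) and after TAC (brown); filled points passed the adjusted threshold of 0.05. Sham points lie right of 0 for 31 genes and TAC points left of 0 for 27.

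Whether the TAC response depended on genotype was tested for each gene by an interaction term. The estimate was below 0 for 31 of the 32 genes, with a median of -0.35 beside 0.03 over all genes tested. It passed for 5 genes, all with the more negative response in knockout: Acot1, Acsl1, Eci1, Slc25a20 and Etfdh (0.553% of all genes passed below 0 and 0.377% above, 0.93% in all, limma with Benjamini-Hochberg). None passed above 0, and at an unadjusted p under 0.05 there were 25 below and 0 above. The share of all genes at that unadjusted level is not given here, and the shares above are for adjusted p. Acot1 had -1.08 ± 0.19 (limma adjusted p = 0.0212), Acsl1 -0.56 ± 0.10 (limma adjusted p = 0.0253), Eci1 -0.50 ± 0.11 (limma adjusted p = 0.0364), Slc25a20 -0.47 ± 0.10 (limma adjusted p = 0.0364) and Etfdh -0.45 ± 0.10 (limma adjusted p = 0.0423). For the 8 genes that fell in knockout and did not pass in wild type, only Acsl1 and Etfdh passed this test, and the rest are not shown to differ between genotypes. Respiratory chain genes and cardiomyocyte markers had interaction estimates below 0 as well, given with those lists.

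The interaction joins the sham and TAC differences, and the knockout sham libraries enter both this contrast and the TAC contrast of the knockout. Of the 32 genes, 26 were above wild type in sham and below it after TAC by their estimates. For Acot1 the sham difference was 0.66 and the TAC difference -0.42. For Slc25a20 these were 0.30 and -0.18, and for Cpt1b 0.21 and -0.08. The count of 5 rested on single libraries: it became 0 without wild-type sham replicate 3 or knockout sham replicate 1, and 21 without knockout TAC replicate 2. Over all genes the count of 111 became 7 without knockout sham replicate 1 and 597 without knockout TAC replicate 2. With the term for the library sets, estimated from 1 wild-type TAC library, 1 of the 32 genes passed, Acot1.

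Other genes of lipid use were counted from lists chosen by function. Of 18 peroxisomal oxidation genes tested, 11 fell in knockout after TAC and 3 in wild type. They include Abcd3, a transporter of acyl-CoA into peroxisomes, at -0.15 ± 0.07 in wild type and -0.59 ± 0.07 in knockout (limma adjusted p = 9.11e-06). Phyh fell too (-0.41 ± 0.06 in knockout), and so did Abcd2 (-0.57 ± 0.10). Of 20 further mitochondrial acyl-CoA enzymes, 16 fell and 1 rose in knockout, and 11 fell in wild type. Crat, which buffers acetyl groups as acetylcarnitine, fell by 0.36 ± 0.07 and 0.80 ± 0.08. Acad12 fell by 0.54 ± 0.05 in knockout and Mmut, the methylmalonyl-CoA mutase, by 0.65 ± 0.07. Of 13 other uptake genes and acyl-CoA synthetases, 3 fell and 2 rose in knockout, and 3 fell and 1 rose in wild type. Over all genes 17.7% fell and 21.1% rose in knockout and 11.2% and 10.7% in wild type, and with so few genes the list is not set apart from them. The falls in knockout were in Acss1 (-0.58 ± 0.10), a mitochondrial acetyl-CoA synthetase, Acsf3 (-0.39 ± 0.08) and Acsl6 (-0.75 ± 0.19).

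Of 18 regulators of the pathway, 8 fell and 1 rose in knockout after TAC, and 2 fell and 1 rose in wild type. Over all genes tested 17.7% fell and 21.1% rose in knockout, and 11.2% fell and 10.7% rose in wild type. The wild-type counts and the count of rises in knockout are not set apart from these shares. Ppara, which encodes PPAR-alpha, went from 14.3 ± 1.42 to 15.7 ± 1.10 FPKM in wild type (0.13 ± 0.08, limma adjusted p = 0.271). In knockout it fell from 15.5 ± 1.28 to 11.9 ± 1.23 (-0.36 ± 0.08, limma adjusted p = 0.00245), and after TAC it was lower than in wild type (-0.38 ± 0.07, limma adjusted p = 0.00445). Its partner Rxra fell in both genotypes (-0.27 ± 0.07 and -0.50 ± 0.08), and Esrra fell in knockout (-0.42 ± 0.07, limma adjusted p = 0.000149). Ppargc1a, the coactivator PGC-1-alpha, rose in wild type (0.87 ± 0.21, limma adjusted p = 0.00797) and was at 0.38 ± 0.23 in knockout (limma adjusted p = 0.204). The regulator that rose in knockout was Hif1a (0.64 ± 0.11, limma adjusted p = 0.000252). None of the 18 regulators passed the interaction test, so their TAC responses are not shown to differ between genotypes.

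Known PPAR targets outside oxidation did not all move with the pathway. Of 9 tested, 4 fell and 2 rose in knockout, and 2 fell in wild type. Over all genes tested 17.7% fell and 21.1% rose in knockout, and 11.2% fell in wild type. With only 9 genes, the counts of rises in knockout and of falls in wild type are not set apart from these shares. Pdk4, the kinase that restrains pyruvate oxidation, rose in knockout from 47.5 ± 21.8 to 121 ± 42.1 FPKM (1.38 ± 0.43, limma adjusted p = 0.0189). Angptl4, an inhibitor of lipoprotein lipase, was higher in knockout than in wild type after TAC (1.11 ± 0.21, limma adjusted p = 0.00392), with 3.48 ± 1.60 against 0.972 ± 0.198 FPKM. Plin5, a coat protein of lipid droplets, fell in knockout (-0.55 ± 0.11), as did Pdk2 (-0.44 ± 0.05), a further kinase of the same family as Pdk4. Of 12 genes of triglyceride storage and lipolysis, 3 fell and 2 rose in knockout, and 2 fell and 1 rose in wild type, which is likewise not set apart from the shares of all genes. Dgat2, which makes triglyceride, fell in knockout by 0.88 ± 0.10 and Pnpla2, the lipase that starts its breakdown, by 0.34 ± 0.06. Cidea rose in both genotypes (0.37 ± 0.09 and 0.37 ± 0.10).

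Genes for other parts of mitochondria fell as well. Of 30 nuclear genes of the respiratory chain, 25 fell in wild type and 30 in knockout, with median changes of -0.26 and -0.50. Of 14 tricarboxylic acid cycle genes, 12 and 13 fell, with medians of -0.27 and -0.47. Over all genes tested 11.2% fell in wild type and 17.7% in knockout. The medians of the 32 fatty acid genes, -0.35 and -0.72, lay below both in each genotype, and these differences between lists were not tested. In sham the median knockout difference was 0.15 for the respiratory chain and 0.11 for the cycle, with 0 genes of either list past the threshold (limma), beside 0.22 for the fatty acid genes. Over all genes tested 1.26% passed in sham. In knockout against wild type after TAC, 6 of the 30 respiratory chain genes were lower (median -0.11) and 4 of the 14 cycle genes (median -0.09). Over all genes tested 4.78% were lower in that comparison. The interaction estimate was below 0 for 30 of 30 respiratory chain genes (median -0.24, 0 past the threshold) and for 13 of 14 cycle genes (median -0.23, 2 past it). Over all genes tested 0.553% passed the interaction test below 0.

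Markers of several cell types in the tissue moved with surgery and, after TAC, with genotype. Over all genes tested 17.7% fell and 21.1% rose in knockout after TAC, and 11.2% fell and 10.7% rose in wild type. With so few markers in each list, counts near these shares are not set apart from them. Of 13 cardiomyocyte markers, 9 fell and 1 rose in knockout after TAC and 5 fell and 3 rose in wild type, with medians of -0.23 and -0.05. Their summed level was 61589 to 63738 FPKM in wild-type sham and 57188 to 60914 after TAC, and in knockout 62449.7 to 66458 in sham and 50641 to 56674 after TAC. In knockout against wild type after TAC these markers had a median of -0.15, beside -0.15 for the fatty acid genes, with 11 of 13 below 0, 3 lower and 1 higher by the test. Over all genes tested 4.78% were lower and 6.53% higher in that comparison. The interaction estimates of the cardiomyocyte markers were below 0 for 11 of 13 (median -0.21, 1 past the threshold). Over all 11937 genes tested 5335 estimates were below 0, and 0.553% passed below 0. Of 9 fibroblast markers, 7 rose in knockout and 4 rose and 1 fell in wild type, and their sum was 341 to 444, 410.05 to 732, 339 to 397 and 599 to 928 FPKM in the same order. After TAC 4 of the 9 were higher in knockout than in wild type, as were 6.53% of all genes tested. The interaction estimate was above 0 for 8 of the 9 (median 0.49, 0 past the threshold), and for 6602 of all 11937 genes tested. Of 9 macrophage markers 5 rose in knockout and 0 passed in wild type. Their sum was 179 to 305 FPKM in wild-type sham and 232 to 361 after TAC, with overlap, and 213 to 236 and 291 to 397 in knockout. Of 9 endothelial markers 3 rose in knockout and 1 in wild type, where 21.1% and 10.7% of all genes rose. Of 8 smooth muscle and pericyte markers 1 rose in knockout, and 0 of 1 lymphocyte and 0 of 5 erythroid markers tested passed in either genotype. The 1 mesothelial marker tested rose in both. Of 3 atrial markers tested, 1 fell in knockout and 2 fell in wild type. The summed skeletal muscle markers went from 123 to 229.5 FPKM in wild-type sham to 1780.3 to 6427 after TAC, and from 31.2 to 369.8 to 1962 to 5567 in knockout. Nearly all of it was Acta1, skeletal alpha-actin, which stressed cardiomyocytes are known to express too (4.51 ± 0.59 and 4.90 ± 0.64 on the log2 scale); Tnni2 fell in both. In bulk tissue, fewer cardiomyocytes and less of an RNA in each cannot be told apart, and the part of these markers in the results was not tested. The defining adipocyte marker Adipoq was at 0 to 0.228 FPKM in every library of the model and Ucp1 was listed at 0. Of the 9 adipocyte markers only Cidea was abundant enough to test, and it rose after TAC in both genotypes and was higher in knockout after TAC (0.29 ± 0.09, limma adjusted p = 0.0397). The sum of the 9 was 15.4 to 21.3 FPKM in wild-type sham, 21.2 to 26.1 in wild-type TAC, 18.99 to 23.8 in knockout sham and 24.8 to 31.3 in knockout TAC.

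**Figure D5:**
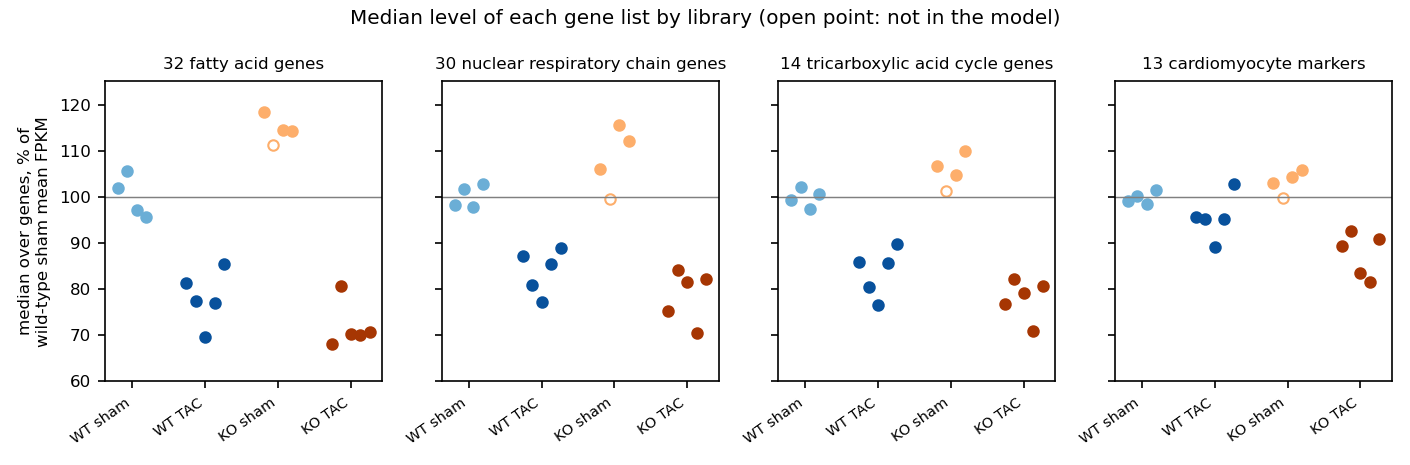
Each point is 1 library, at the median over a gene list of the level in percent of the wild-type sham mean FPKM, for the 4 groups; the axis starts at 60. The 32 fatty acid genes lie at 69.5% to 85.5% in wild-type TAC and 68.1% to 80.7% in knockout TAC, with the cardiomyocyte markers nearer to 100%.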

How the data were processed

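Heart RNA was measured in 18 libraries of 4 groups. The authors deposited 1 table of values, which per the labels rests on SMARTER mRNA-seq libraries and, per the submitters' processing notes, on the mm10 build. Which aligner and counter were used was not given in the sources used here. Its unit was inferred as FPKM from the deposited values, which were not whole and summed to 390453 to 432264 per library. FPKM and RPKM could not be told apart, and the depth is unknown.

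Values were used as log2(FPKM + 1). A gene was tested if 3 or more of the 17 libraries in the model reached 1 FPKM (11937 genes). 1 limma model (version 3.58.1, R 4.3.3) with a mean for each group, intensity trend and robust moderation gave the 5 contrasts, adjusted over all genes tested by Benjamini-Hochberg at 0.05. Values of each library were given for the members with the largest and smallest knockout change in each role group, those that passed against the main direction or in a genotype contrast, and 3 related pairs. From each pathway list up to 3 genes that passed with the smallest adjusted p in knockout were named, with Ppara, Ppargc1a, Esrra, Pdk4 and Angptl4 added; 1 gene that the rule names is not reported here. The members and lists were chosen with earlier results of these data known. Coordinates and promoters are from RefSeq (GRCm38.p6), and overlaps and reading frames from GENCODE M21 of the same assembly, aligned with Biopython 1.88. None of 13 genes encoded in the mitochondrial genome was in the table (0 found). The model was tested on simulated data. Alternatives were another pseudocount, no filter, median-ratio scaling, all 18 libraries, only the groups compared, a replicate block, a term for the library sets, and libraries left out.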

Additional observations from a re-analysis of the deposited data

Results flagged for a closer look

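Single libraries stood apart for 8 of the 96 groups of values examined, where chance gives about 1 in 20. Knockout sham, with 3 libraries in the model, was too small for the rule and was not examined. The genes come from the same libraries, so the groups of values are not independent. Acsl1 was at 219.9 FPKM in knockout TAC replicate 2, and the other libraries of that group were at 168 to 181. Slc25a20 was at 81.1 FPKM in knockout TAC replicate 2, and the other libraries of that group were at 63.6 to 68.4. Acadl was at 369.9 FPKM in wild-type TAC replicate 3, and the other libraries of that group were at 422 to 427. Hadha was at 453 FPKM in knockout TAC replicate 2, and the other libraries of that group were at 378 to 393. Acaa2 was at 300.3 FPKM in knockout TAC replicate 2, and the other libraries of that group were at 179 to 203. Decr1 was at 84 FPKM in wild-type TAC replicate 3, and the other libraries of that group were at 99.4 to 105. Etfb was at 336 FPKM in wild-type TAC replicate 3, and the other libraries of that group were at 377 to 393. Ucp3 was at 9.52 FPKM in wild-type sham replicate 4, and the other libraries of that group were at 12.9 to 13.3. Knockout TAC replicate 2 was the high library for 4 genes, wild-type TAC replicate 3 the low library for 3, and wild-type sham replicate 4 the low library for Ucp3.

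The TAC response differed between genotypes by the interaction test for 5 genes. Acsl1 responded by -0.56 (knockout minus wild type) on the log2 scale (limma adjusted p = 0.0253), with a change of -0.16 in wild type and -0.72 in knockout. Slc25a20 responded by -0.47 (knockout minus wild type) on the log2 scale (limma adjusted p = 0.0364), with a change of -0.25 in wild type and -0.72 in knockout. Eci1 responded by -0.50 (knockout minus wild type) on the log2 scale (limma adjusted p = 0.0364), with a change of -0.44 in wild type and -0.94 in knockout. Etfdh responded by -0.45 (knockout minus wild type) on the log2 scale (limma adjusted p = 0.0423), with a change of -0.19 in wild type and -0.65 in knockout. Acot1 responded by -1.08 (knockout minus wild type) on the log2 scale (limma adjusted p = 0.0212), with a change of -0.65 in wild type and -1.72 in knockout.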

How the results depend on the processing

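No called change of a member reversed its sign under any alternative run. Of the 160 log2 changes (32 genes, 5 contrasts), 145 kept 1 sign in every fit, and 15 that were not called changed sign. Besides, 140 alternative values of single genes lost a call and 137 gained one. Calls kept in all 17 fits that left out 1 library and in all other fits run were 19 of 22 for TAC in wild type, 28 of 29 for TAC in knockout, and 0 of 3, 0 of 8 and 0 of 5 for the knockout in sham, the knockout after TAC and the interaction. Where a value moved, the cause was not tested. The term for the library sets is estimated from 1 wild-type TAC library, so counts with it carry the deviation of that library.

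For TAC in wild type, the 1 member called higher became 0 with no filter on low values, with the term for the library sets and without the 2 TAC libraries nearest sham (wild-type replicate 5 and knockout replicate 2), and was 0 to 1 with 1 library left out. Those 2 libraries were picked for lying nearest sham, so counts without them, here and below, are not an independent check. For the knockout in sham, the 3 members called higher became 5 with median-ratio scaling, 6 with all 18 libraries, 6 with only the groups compared, 0 with the set term and 9 without the 2 TAC libraries. Leaving out 1 library gave 1 to 8. The 151 genes called became 227 with all 18 libraries and 12 with the set term, and 50 (without knockout sham replicate 3) to 169 with 1 library left out.

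For the knockout after TAC, the 8 members called lower became 5 with no filter, 2 with the set term and 4 with only the groups compared, and 4 to 13 with 1 library left out. The 1350 genes called became 243 with the set term and 814 with only the groups compared, and 663 (without knockout TAC replicate 1) to 1833 (without replicate 2). For the interaction, the 5 members became 0 with no filter, 15 with median-ratio scaling, 13 with all 18 libraries, 1 with the set term and 17 without the 2 TAC libraries, and 0 to 21 with 1 library left out. The 111 genes called became 16, 199, 300, 17 and 460 under the same settings, and 7 to 597 with 1 library left out.

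No sign of pairing by replicate number was seen. Deviations from the group means correlated between -0.24 and 0.16 over 22 same-numbered pairs, and between -0.23 and 0.28 over 85 other pairs. With so few libraries in each group, this check cannot exclude a pairing. With a replicate block, 8 members were called higher in the knockout in sham, and 18 members and 345 genes were called in the interaction. It moved no other count by over 1.5 times.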
